A study of Mus musculus with 6 samples.

Results

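The comparison described here is between two-cell mouse embryos that received mRNA for an inactive form of PIASy and embryos that were not injected. Its members are the 13975 genes that reached an FPKM of 1 in 2 or more of the 4 libraries of these groups, out of the 53023 genes of the deposited table. FPKM is the number of fragments on a gene scaled to the gene's length and to the depth of its library. Embryos of the ICR strain were made by in vitro fertilization. Injection of the PIASy-Mut mRNA, which codes for PIASy with the C335F change, tagged with the red fluorescent protein mCherry and with HA per the study, was at 100 ng/µl between 1.5 and 3 h post-insemination (hpi). The study describes a selection of injected zygotes by fluorescence at 9 hpi for its culture experiments. It does not state whether the sequenced embryos were selected in this way. Both groups were collected at 28 hpi. The non-injection embryos received no mRNA at all, and no library from embryos injected with an unrelated mRNA was analysed here, so the act of injection, an excess of foreign mRNA and the PIASy-Mut protein cannot be told apart. Each group had 2 libraries and each library pooled 5 embryos. The study describes its replicates as biological, and the sources used here do not say whether these pools came from separate fertilizations, so p-values measure the spread between these libraries. A further pair of libraries, from embryos injected with wild-type PIASy mRNA (PIASy-WT), entered the fit for its estimate of the spread and is used below as a reference.

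PIASy, the protein of the gene Pias4, is an E3 ligase for SUMO, a small protein that is attached to lysines of other proteins. The ligase recruits the SUMO-conjugating enzyme through a RING-type zinc-binding domain, and the loss of a zinc-coordinating cysteine in such a domain disables the ligase while the protein can still be made. In the mouse the two-cell stage is the time of major zygotic genome activation, when maternal mRNAs stored in the oocyte are cleared and the embryo transcribes its own genes, among them the Zscan4 cluster and other transiently expressed families. The comparison addresses what injection and the inactive protein leave unchanged at that stage.

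The coding bases around the altered cysteine are shown because they define the injected protein. They were read from the GENCODE M21 transcript Pias4-201 on the mm10 genome, chr10:81155695-81155721 on the minus strand, in exon 9 of 11, and the capitals mark the codon of the cysteine that C335F replaces with phenylalanine (residues are counted from 1 at the first methionine).
Pias4 mutated codon: cgtgcagagaccTGCgcacacctgcag

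Pias4 itself (ENSMUSG00000004934.14, chr10:81153266-81167923 on the minus strand of mm10) was measured first, since it checks which libraries came from injected embryos. It cannot tell PIASy-Mut from PIASy-WT, whose libraries had an FPKM of 610 and 579. Embryos that were not injected had an FPKM of 2.98 and 3.59, and PIASy-Mut embryos had 862 and 611, from 15 and 15 fragments against 3288 and 1967. Both PIASy-Mut libraries lay far above both non-injection libraries, and injected and endogenous transcripts were counted together. On the scale of log2(FPKM + 1) the difference was 7.41 ± 0.265 (SE, n = 2 and 2), with an adjusted p of 0.00104 by limma. PIASy-Mut 2 had less of it than PIASy-Mut 1, by 0.50 on the same scale. The call was lost when either non-injection library was left out (adjusted p of 0.285 without non-injection 1 and 0.252 without non-injection 2), with the difference still at 7.31 and 7.51.

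With a threshold of 0.05 on the adjusted p, Pias4 was the only gene called. It was higher, which is 0.00716% of the 13975 members, and 0 members (0%) were lower. Without adjustment, 708 members had a p under 0.05 by limma, of which 377 were higher in PIASy-Mut and 331 lower, and limma voom on the recovered fragments also gave 1 gene higher and 0 lower. An exact permutation test of a single gene over 2 against 2 libraries gives no two-sided p under 0.333, so single genes were tested only in the fit across all members. The median difference over all members was 0.04 on the log2(FPKM + 1) scale. In the plot of group means the members lie along the diagonal.

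**Figure D1:**
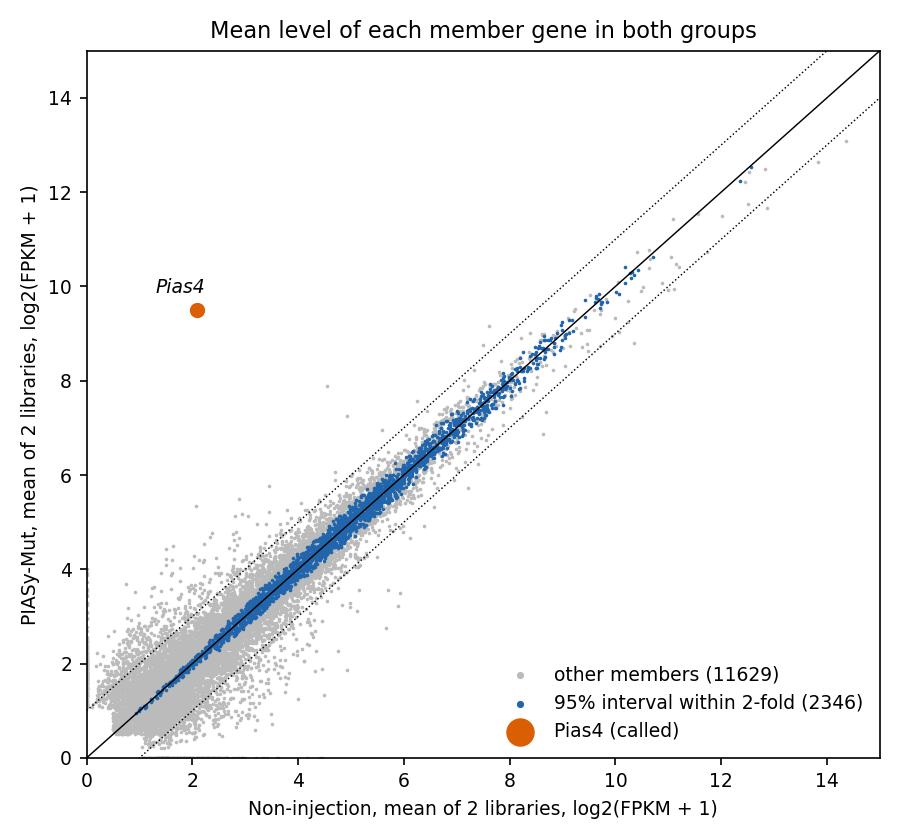
Mean log2(FPKM + 1) of 2 non-injection libraries (horizontal axis) and 2 PIASy-Mut libraries (vertical axis) for each of the 13975 members. Blue points are the 2346 genes whose 95% interval lies within 2-fold, dotted lines mark a 2-fold difference, and Pias4 stands alone above them at a difference of 7.41.

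A p that misses the threshold does not show that a gene was unchanged, so the interval of each difference was used to say how far a gene can have moved. For 2346 members (16.8%) limma's 95% interval lay within 2-fold in either direction, and these genes are called bounded below. Precision followed the number of fragments. Among members with a mean of under 10 fragments 0.800% were bounded, among those with 50 to 200 fragments 38.96%, among those with 200 to 1000 fragments 62.5% and among the 112 genes above that 57.1%. The 4045 members with a mean of at least 50 fragments over the 4 libraries, called well-counted below, had a median difference of 0.03, with quartiles at -0.15 and 0.21. Of these 1835 (45.4%) were bounded, and for 99.2% the difference was itself under 2-fold. The fit used the same estimate of the spread for all groups. Over the well-counted members the SD of the difference between replicate libraries was 0.735 in PIASy-Mut, 0.439 in non-injection and 0.473 in PIASy-WT. The intervals may therefore be too narrow for PIASy-Mut. The number of bounded genes fell to 370 and 303 when non-injection 1 or non-injection 2 was left out, and to 1117 when the PIASy-WT libraries did not enter the fit.

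The labelled stage was checked against oocyte and two-cell markers. All 10 were members. Zfp352, a two-cell gene, had an FPKM of 326 and 293 without injection and at 291 and 326 in PIASy-Mut, and its interval was bounded (-0.62 to 0.62). Of 11 markers of cumulus and granulosa cells, which surround the oocyte, 1 was a member (Tnfaip6), Ptx3, Foxl2, Amh and Inhba were at 0 in all 4 libraries, and their summed level was between 5.87 and 17.2 CPM, fragments scaled to the depth of the library. Sperm and blood markers summed to 5.74 to 17.4 CPM. Markers of later embryos, with Cdx2 and Sox17 at 0, summed to 49.9 and 72.5 CPM without injection and 67.8 and 96.4 CPM in PIASy-Mut.

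The 4 libraries held 1363928 and 1130853 fragments on genes in non-injection and 1032206 and 871663 in PIASy-Mut. One library stood apart. Mitochondrial genes took 1.28% of the fragments of PIASy-Mut 1 (95% Wilson interval 1.26 to 1.31%), but 6.99% of PIASy-Mut 2, 6.40% and 6.47% of the non-injection libraries and 5.82% and 8.14% of the PIASy-WT libraries. These intervals cover counting error only. Taking the mitochondrial genes out of the totals raised the other genes by 0.0186 (log2) in PIASy-Mut 1 and by 0.105 in PIASy-Mut 2, and the median PIASy-Mut 2 minus PIASy-Mut 1 of the well-counted members went from -0.18 to -0.10 (to -0.06 under quantile normalization).

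Among the lists of gene functions, calls were as rare as over all members (0.00716%), so a count of 0 says nothing particular to a list, and the intervals and library values are given instead. None of the 86 cytosolic ribosomal protein genes was called, 27 were bounded, and the median over the 54 well-counted ones was 0.05 beside 0.03 over all well-counted members. Rpl41, a component of the large subunit, had an FPKM of 878 and 849 without injection and at 1056 and 628 in PIASy-Mut, and its interval was -0.97 to 0.80. Each non-injection value lay between the PIASy-Mut values. Rps21 of the small subunit showed the same order more widely, at 86.0 and 80.8 against 148 and 55.2. Rps27l, a ribosomal protein paralogue that is a target of p53, was at 1135 and 1182 against 1004 and 1156 and varied little. Both non-injection libraries lay inside the PIASy-Mut range for 37 of the 54 well-counted genes, beside 1663 of 4045 (41.1%) over all well-counted members. The ribosomal protein genes have many processed pseudogenes, with which reads can be shared, so single values are less certain.

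The other translation lists had 0 genes called. Initiation and elongation factors gave a median of 0.01 over 40 well-counted genes, of which 21 were bounded. Eif1, which positions the start codon, was at 549 and 515 without injection and at 507 and 510.2 in PIASy-Mut (interval -0.61 to 0.48). Eif5, its partner in start codon recognition, was at 228 and 256 against 293 and 204. Aminoacyl-tRNA synthetases, which charge tRNAs, gave -0.07 over 8 genes with 6 bounded, and Farsb of the phenylalanine enzyme was at 47.3 and 61.1 against 52.9 and 59.6. Among the 26 well-counted genes of ribosome biogenesis the median was 0.03 and 9 were bounded. Nhp2 and Nop10, both part of the particles that modify rRNA, were bounded, with Nhp2 at 407 and 434 against 480.2 and 347 and Nop10 at 396 and 404 against 423 and 295.

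Protein folding and turnover followed the same form. All 8 genes of the TRiC chaperonin, the ring that folds actin and tubulin, were well-counted members, 4 were bounded and the median was -0.08. Cct8 was at 167 and 206 without injection and at 200.5 and 142 in PIASy-Mut, so the group ranges overlapped. Heat shock chaperones gave a median of 0.08 with 7 of 13 bounded, and Hsp90ab1, the constitutive HSP90, was at 128 and 148 against 156 and 99.1. Of 24 well-counted proteasome subunit genes, which encode the particle that degrades ubiquitylated proteins, 8 were bounded and the median was 0.09. Psma6 of the core ring was at 175 and 257 against 361 and 142, again with PIASy-Mut 1 highest and PIASy-Mut 2 lowest.

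RNA synthesis and processing genes gave 0 calls as well. The median was -0.08 over 30 well-counted splicing factors, 15 of them bounded, and -0.09 over 34 genes of RNA polymerases and general transcription factors, 16 of them bounded. Polr2f, a subunit shared by the nuclear RNA polymerases, was at 795 and 889 without injection and at 826 and 672 in PIASy-Mut and was bounded. Snrpd1 and Snrpe, core proteins of the spliceosomal particles, differed by -0.32 and -0.31, and only the second was bounded. Nuclear pore and transport genes gave -0.04 with 16 of 27 bounded. Of 15 well-counted genes of maternal mRNA decay 8 were bounded. Cnot7, a deadenylase of the CCR4-NOT complex, was bounded at 291 and 258 against 197 and 308. Btg4, which brings that complex to maternal mRNAs, was at 1247 and 1168 without injection and at 508 and 1332 in PIASy-Mut, where PIASy-Mut 1 alone was low.

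Of the cell cycle genes, which drive the embryo through its first cleavages, 0 were called. The DNA replication list gave a median of 0.04 with 14 of 25 well-counted genes bounded, and the list of cyclins, mitotic kinases and the anaphase-promoting complex gave 0.10 with 12 of 30. Geminin (Gmnn), the inhibitor of origin licensing, was at 957 and 879 without injection and at 1022 and 652 in PIASy-Mut. Securin (Pttg1), which holds separase inactive, was at 768 and 814 against 813 and 969, and Ccnb1, the mitotic cyclin, was at 338 and 277 against 352 and 249. All 3 were bounded. Histones and their chaperones gave -0.10 with 7 of 14 bounded. Npm2, the oocyte nucleoplasmin that unpacks sperm chromatin, was at 254 and 344 against 339 and 673, so that PIASy-Mut 2 was high while PIASy-Mut 1 lay just below non-injection 2. Cytoskeletal genes gave 0.08 with 7 of 11 bounded.

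Chromatin regulators were compared because the study followed H3K9 methylation. Of 19 writers, readers and erasers of this mark 0 were called, 4 were bounded and 8 were well-counted, with a median of 0.09. Suv39h1, a methyltransferase of constitutive heterochromatin, was at 9.04 and 8.39 without injection and at 12.3 and 7.62 in PIASy-Mut and was bounded (-0.71 to 1.00). Its paralogue Suv39h2 was at 26.3 and 24.5 against 19.3 and 39.8, with an interval of -0.77 to 1.03. For Suv39h1 the higher PIASy-Mut library was PIASy-Mut 1 and for Suv39h2 it was PIASy-Mut 2. Setdb1, which methylates H3K9 at repeats, was at 7.17 and 4.52 against 7.21 and 5.36. Kdm4a, an eraser, was at 8.75 and 5.35 against 6.87 and 0.794 from 69, 35, 41 and 4 fragments, and only PIASy-Mut 2 was low. Its relative Kdm4d had 2 to 4 fragments in each library, too few for a difference to be detected. Genes of Polycomb and DNA methylation gave a median of 0.08 with 9 of 15 bounded, and Suz12, a core subunit of the H3K27 methyltransferase complex, was at 162 and 171 against 151 and 171. Dppa3, which protects the maternal genome from loss of methylation, was at 6001 and 5264 against 5444 and 4138 and missed the bound narrowly at its lower end (-1.06).

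In the SUMO pathway, Pias4 was the 1 gene called among 21 members, and 7 of the others were bounded. Pias3, a further ligase of the family, had an FPKM of 3.37 and 1.58 without injection and at 2.72 and 0.293 in PIASy-Mut, from 1 fragment in PIASy-Mut 2. Senp2, a SUMO protease, was at 14.0 and 13.6 against 14.0 and 4.84. Senp8, a related protease whose substrate is NEDD8, was at 13.3 and 16.1 against 9.04 and 25.5. PIASy-Mut 1 matched non-injection for Senp2 and was below it for Senp8, while PIASy-Mut 2 was below for the first and above for the second. The group difference was -0.66 ± 0.504 for Senp2 and 0.06 ± 0.504 for Senp8 (SE, n = 2 and 2).

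Genes that mark zygotic genome activation were present in both groups. Of 26 two-cell transient genes 0 were called, 11 were bounded and the median over 18 well-counted ones was 0.16. Tcstv3, of a two-cell-specific family, was at 464 and 562 without injection and at 706 and 523 in PIASy-Mut. Usp17lb, a deubiquitinase gene of a repeated family, was at 387 and 420.3 against 582 and 415, and Tcstv1 was at 219.7 and 228 against 199 and 259. These 3 genes were bounded. In the Zscan4 cluster the libraries parted. Zscan4d, which acts on telomeres and two-cell chromatin, was at 127 and 102 without injection, 61.4 in PIASy-Mut 1 and 187 in PIASy-Mut 2, and the summed CPM of the cluster was 429, 329.8, 210.2 and 781 in the same order. PIASy-Mut 1 held the lowest and PIASy-Mut 2 the highest level of the 4. Duxf3, the activator of these genes, had 0 fragments in all 4 libraries and is no member. Members of these families share sequence, so reads cannot be assigned to single copies with certainty.

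The Obox homeobox genes of the oocyte and two-cell embryo split by member. Obox6 was at 601 and 595 without injection and at 1002 and 513 in PIASy-Mut, with PIASy-Mut 1 highest. PIASy-Mut 2 was above PIASy-Mut 1 for 4 of the 7 genes and below it for 3. Obox5 was at 1542 and 943 against 488 and 754, so that both PIASy-Mut libraries lay below both non-injection libraries (-0.99 ± 0.389 SE, adjusted p = 0.932 by limma). Of the 7 genes 1 was bounded, Obox3, named after its values were seen. Transcription factors of genome activation and early lineages gave a median of -0.07 with 5 of 12 well-counted genes bounded. Klf17, of the Krüppel-like family, was at 104 and 108 against 147 and 128 and was bounded, while the nuclear factor Y subunit Nfya was at 10.02 and 11.4 against 5.83 and 16.0.

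Maternal transcripts were among the most abundant in both groups. Omt2a and Omt2b, oocyte genes, and Oog3, an oocyte gene of the leucine-rich repeat family, were among the 10 protein-coding members with the highest FPKM. Oog3 was at 6715 and 5518 without injection and at 6304 and 5576 in PIASy-Mut, and Omt2a was at 5625 and 4938 against 4349 and 5297. Both were bounded. Among lists with 5 or more well-counted genes, oocyte regulators had the lowest median outside the mitochondrial genome, -0.32 over 16 genes, with 0 called and 4 bounded. Both PIASy-Mut libraries lay below both non-injection libraries for 5 of the 16 and above both for 0. Over all well-counted members these shares were 9.59% and 12.3%. Bcl2l10, an anti-apoptotic protein of the oocyte, was at 1089.5 and 873 against 287 and 849, and PIASy-Mut 1 accounted for most of its lower mean. The oocyte Nlrp genes gave 0.00 over 5 genes and the zona pellucida and oocyte-secreted factors 0.10 over 7. Zp3, a coat protein of the egg, was the 1 bounded gene of these 7, at 70.9 and 73.5 against 80.6 and 74.6. In this list both PIASy-Mut libraries lay above both non-injection libraries for 3 genes and below both for 1. Gdf9, a secreted factor, was among the 3, at 78.0 and 94.9 against 121 and 219. The subcortical maternal complex, a structure of the egg cortex needed for cleavage, had the highest median of these lists, 0.18 over 5 genes. Its member Zbed3 was at 2541 and 1937 against 604 and 1602, and its core component Nlrp5 was at 10.1 and 9.85 against 18.2 and 18.5. PIASy-Mut lay below non-injection for the first and above it for the second in both libraries.

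Stress and RNA-sensing genes were compared because the injected embryos received mRNA. Of 31 genes of RNA sensing and the interferon response 10 were members and 0 were called. The summed CPM of the list was 212 and 187 without injection and 182 and 194 in PIASy-Mut, so the groups overlapped. Ifnb1, Ifit2, Ifit3, Oas1g and Tlr7 had 0 fragments in all 4 libraries. Isg15, the ubiquitin-like product of interferon signalling, had 6 and 3 fragments without injection and 0 in each PIASy-Mut library, at or near the limit of detection. Genes of the unfolded protein and integrated stress response gave a median of 0.04 with 8 of 12 well-counted genes bounded, and Pdia3, which folds glycoproteins in the endoplasmic reticulum, was bounded at 131 and 129 against 185 and 106. For p53 targets and the DNA damage checkpoint the median was -0.08 with 5 of 9 bounded. Chek1, a checkpoint kinase, was at 111 and 112 against 89.7 and 124. Antioxidant enzymes gave -0.03 with 5 of 8 bounded, and Prdx2, a peroxiredoxin, was at 820.4 and 864 against 873 and 708. For the BCL2 family and caspases 0 of 5 were bounded and the median was -0.16. Glycolytic genes and lactate dehydrogenase gave -0.17 over 4 genes with 1 bounded.

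Among 32 lists with at least 5 well-counted members, the median difference of PIASy-Mut from non-injection was within 0.2 of 0 for 30 lists. The exceptions were the oocyte regulators at -0.32 and the mitochondrially encoded proteins at -1.06.  For 22 lists the median was above non-injection in PIASy-Mut 1 and below it in PIASy-Mut 2, and for 3 lists it was the reverse.

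**Figure D2:**
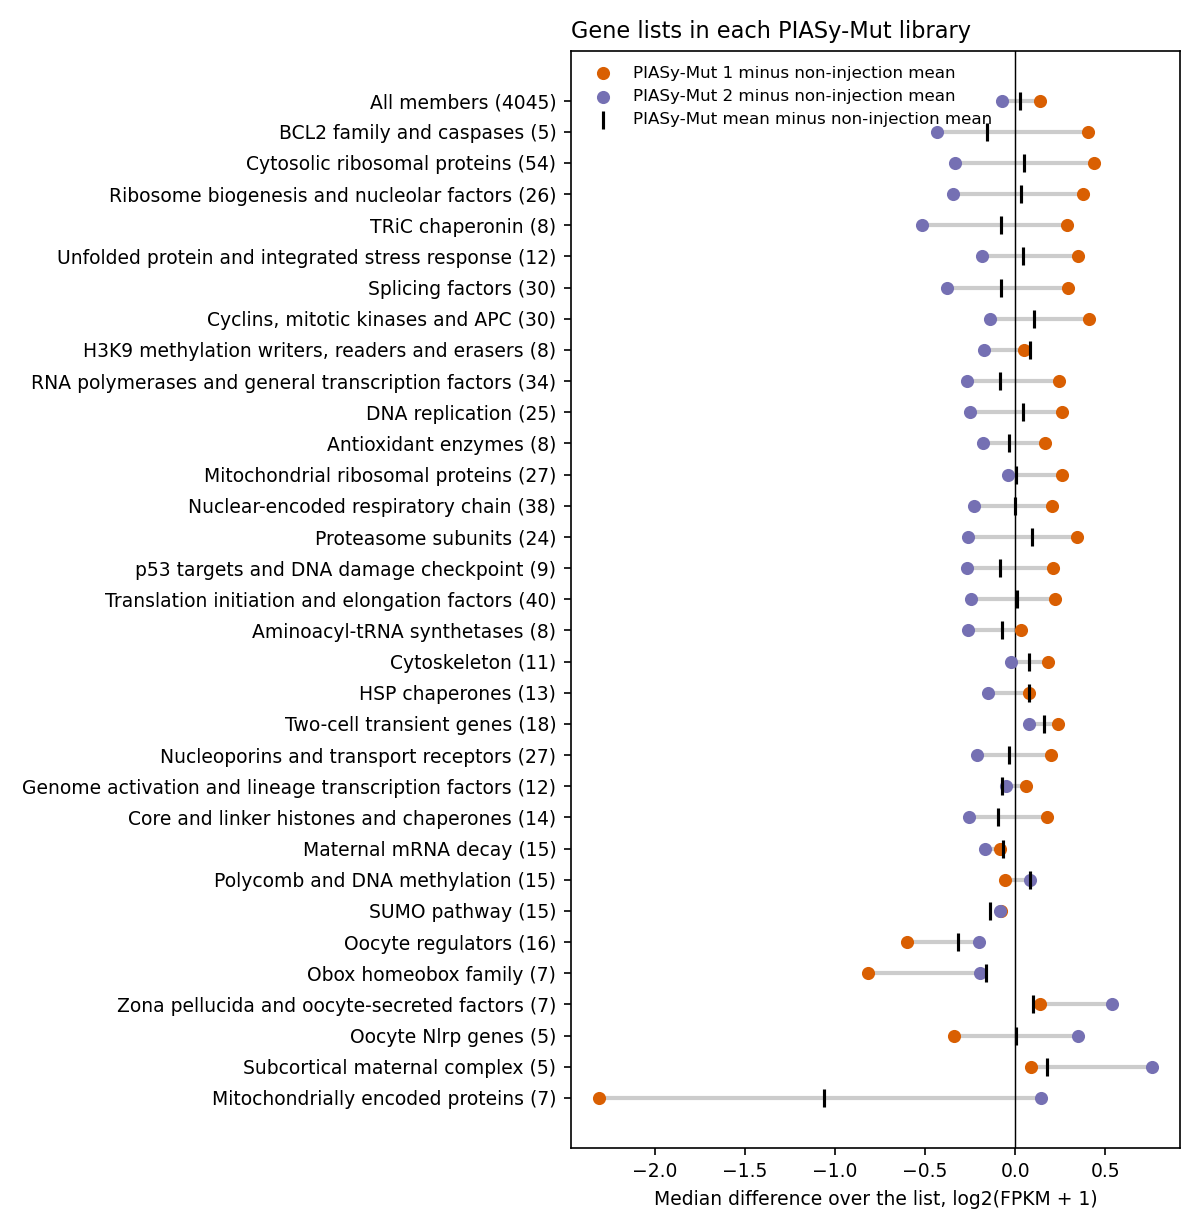
Median difference from the non-injection mean on the log2(FPKM + 1) scale over the well-counted genes of each list (number in brackets), for PIASy-Mut 1 (orange), PIASy-Mut 2 (purple) and their mean (black bar). In most lists the mean sits near 0 between both libraries, and ribosomal protein genes run from 0.44 in PIASy-Mut 1 to -0.34 in PIASy-Mut 2.

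Some genes had groups that did not overlap. Among the 4045 well-counted members, both PIASy-Mut libraries were above both non-injection libraries for 498 (12.3%) and below both for 388 (9.59%). For 1663 (41.1%) both non-injection libraries lay between the PIASy-Mut libraries. With 2 libraries against 2, such orders also arise between groups that do not differ, so these counts show no group difference. The protein-coding genes of this kind with the highest differences, after Pias4, were Esp24, Izumo1r, Ndufa10, Ifit1bl2 and Serpine2. Esp24, a secreted peptide gene, was at 241 and 132 without injection and at 407 and 454 in PIASy-Mut. Izumo1r, the egg receptor for the sperm protein Izumo1, was at 13.0 and 10.7 against 15.9 and 47.5, with PIASy-Mut 1 close to non-injection. Ndufa10, a subunit of respiratory complex I, was at 10.6 and 7.17 against 16.0 and 25.1. Their differences were 1.26 ± 0.502, 1.16 ± 0.515 and 1.12 ± 0.343 (SE, n = 2 and 2), with adjusted p from 0.786 to 1.00 by limma.

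At the lower end stood AU022751, Rfpl4, Zbed3, Arl5b, Zfyve21 and Obox5. AU022751 was at 77.9 and 59.9 without injection and at 18.9 and 31.3 in PIASy-Mut, a difference of -1.45 ± 0.349 (SE, adjusted p = 0.565 by limma). Rfpl4, an oocyte gene of the RING finger family, was at 417 and 405 against 93.7 and 274. Zfyve21, which codes for a lipid-binding adaptor, was at 55.0 and 65.4 against 17.7 and 44.8. For Rfpl4, Zbed3 and Zfyve21 PIASy-Mut 1 was far below non-injection and PIASy-Mut 2 nearer to it.

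The constant-region genes of the immunoglobulin heavy locus on chromosome 12 included the gene with the smallest p after Pias4. They were chosen after their values were seen. Ighg2b (chr12:113302965-113307933, mm10, minus strand) had an FPKM of 6.84 and 5.94 without injection and at 40.9 and 46.7 in PIASy-Mut, from 25, 18, 113 and 109 fragments. Its difference was 2.60 ± 0.257 (SE, n = 2 and 2) and missed the threshold (adjusted p = 0.124 by limma, unadjusted p = 3.94e-05). Ighg1 had 17, 10, 36 and 28 fragments and Ighg3 had 10, 3, 44 and 40 in the same order. For these 3 genes both PIASy-Mut libraries lay above both non-injection libraries, and Ighm had the same order by FPKM at 2.72 and 4.22 against 4.62 and 10.3, a narrow gap at 7 to 17 fragments. Ighd had 1 fragment, in PIASy-Mut 2. Igha, Ighe and Ighg2c had 0 fragments. The summed CPM of the 8 genes was 43.3 and 35.4 without injection, 196 and 224 for PIASy-Mut and 216 and 211 for PIASy-WT, so all 4 libraries from injected embryos were above both from embryos that were not injected. These genes resemble one another in sequence, so the split between them is uncertain.

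The PIASy-Mut libraries differed from each other more than the libraries of the other groups did. Over the well-counted members the SD of PIASy-Mut 2 minus PIASy-Mut 1 was 0.735 on the log2(FPKM + 1) scale, against 0.439 within non-injection and 0.473 within PIASy-WT. PIASy-Mut 1 was at least 2-fold above PIASy-Mut 2 for 454 genes (11.2%), and PIASy-Mut 2 at least 2-fold above PIASy-Mut 1 for 244 (6.03%). The non-injection libraries differed this much for 34 genes (0.841%) in favour of non-injection 1 and 44 (1.09%) in favour of non-injection 2. Within PIASy-WT it was 126 genes in favour of PIASy-WT 1 and 34 in favour of PIASy-WT 2. A comparison of 1 library with 1 has no test. The split between the directions depended on scaling. Quantile normalization gave 324 and 337 genes, and rescaling without the mitochondrial genes gave 360 and 293. PIASy-Mut 1 took 65.0% of these genes on the deposited scale, 49.0% after quantile normalization and 55.1% after rescaling.

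Both non-injection libraries lay between the PIASy-Mut libraries for 1663 of the well-counted members (41.1%), and both PIASy-Mut libraries lay between the non-injection libraries for 279 (6.90%). PIASy-Mut 1 was the highest of the 4 libraries for 1123 of the first and PIASy-Mut 2 for 540. A mean near that of non-injection was therefore often the midpoint of values on either side of it. With PIASy-Mut 1 left out the fit again called Pias4 alone (adjusted p = 0.0294 by limma) and bounded 1772 genes, and with PIASy-Mut 2 left out it called Pias4 alone (0.0220) and bounded 1769. Of the 2346 genes bounded with all libraries, 1297 and 1311 were among these.

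Of the gene lists, the mitochondrial transcripts had the largest median gap between the PIASy-Mut libraries. Mitochondrial DNA codes for subunits of the respiratory complexes, and 7 of its 13 protein genes were well-counted. The FPKM of mt-Cytb, of complex III, was 21140.4 and 21136 without injection, 3226 in PIASy-Mut 1 and 23348 in PIASy-Mut 2. That of mt-Nd1, of complex I, was 14698 and 14612, 2589 and 15650.1 in the same order, and that of mt-Co1, of complex IV, was 5964 and 5617, 1983 and 5975. PIASy-Mut 1 was the lowest library for each of the 7 genes and PIASy-Mut 2 the highest of the 4, with non-injection just below it. The median difference was -2.31 in PIASy-Mut 1 and 0.14 in PIASy-Mut 2 from the non-injection mean. From the fragments, mt-Cytb was 7.24-fold higher in PIASy-Mut 2 than in PIASy-Mut 1 relative to depth (95% counting interval 6.99 to 7.49). In such pools, fewer cells of a kind and less RNA in each cell cannot be told apart.

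**Figure D3:**
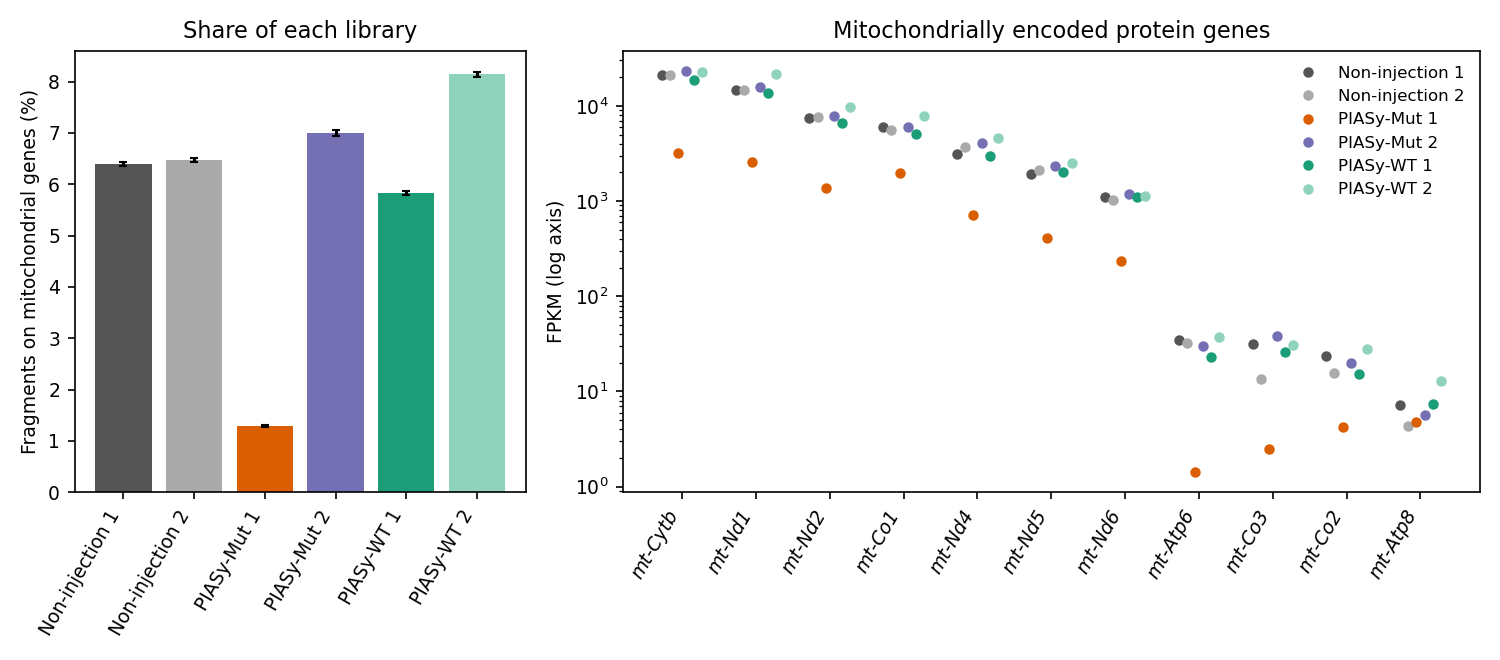
Left, percent of each library's fragments on mitochondrial genes, with 95% Wilson intervals; right, FPKM on a log axis of 11 mitochondrially encoded protein genes that were above 0 in every library. PIASy-Mut 1 (orange) stands at 1.28% while the other 5 libraries lie between 5.82% and 8.14%.

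The nuclear-encoded partners of these proteins did not share the pattern. The 38 well-counted nuclear genes of the respiratory chain had a median PIASy-Mut 2 minus PIASy-Mut 1 of -0.43 beside -0.18 over all well-counted members, and the 27 mitochondrial ribosomal protein genes had -0.47. Cox8a, the most abundant, was at 1306 and 1459 without injection and at 1285 and 1330.4 in PIASy-Mut. Ndufs8, a complex I subunit, was at 36.5 and 49.6 against 104 and 27.4, highest in PIASy-Mut 1. Nuclear copies of mitochondrial sequence did share it. On chromosome 1 the neighbouring pseudogenes Gm28438, Gm28437, Gm10925 and Gm28661 (chr1:24612775-24615565, mm10) have 98.99 to 100% of their 50-base stretches in common with mitochondrial transcripts, and they were the only well-counted nuclear genes of 4035 with any. Gm28438 was at 342 and 451 without injection, 30.9 in PIASy-Mut 1 and 432 in PIASy-Mut 2, and the median PIASy-Mut 2 minus PIASy-Mut 1 of the 4 was 2.39. Reads of such copies and of the mitochondrial genome cannot be told apart with certainty.

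Outside the mitochondrion, the protein-coding genes with the largest excess in PIASy-Mut 1 among those steady within non-injection were Syngr3, Scd1, 8030474K03Rik, Tmed6, Gm38100, Tor1b, Polr3d and Utp3. Scd1, the desaturase that makes monounsaturated fatty acids, had an FPKM of 13.2 and 14.99 without injection, 30.5 in PIASy-Mut 1 and 6.17 in PIASy-Mut 2. Utp3, a factor of small-subunit rRNA processing, was at 41.4 and 49.4, 86.8 and 22.5. Polr3d, a subunit of RNA polymerase III, was at 13.9 and 17.4, 26.8 and 6.43. For all 8 genes PIASy-Mut 1 was above and PIASy-Mut 2 below both non-injection libraries. Tmed6, a cargo receptor of the secretory pathway, was at 51.3 and 69.0, 95.7 and 23.7, and Syngr3, a vesicle protein, was at 16.6 and 22.2, 40.2 and 8.31. Relative to depth, Scd1 was 4.94-fold higher in PIASy-Mut 1 than in PIASy-Mut 2 (95% counting interval 3.24 to 7.80).

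In the other direction the mitochondrial genes took 6 of the 8 places, and Cfap58 and Arl6 the rest. The next nuclear genes were Oosp2, Ifitm6, Hpcal1, Rbm7, Daw1 and Stard3nl, a list extended after the values were seen. Cfap58, a cilia and flagella gene, was at 13.8 and 11.6 without injection, 8.98 in PIASy-Mut 1 and 35.7 in PIASy-Mut 2. Arl6, a small GTPase of ciliary transport, was at 46.8 and 47.6, 16.2 and 60.7. Rbm7, a cofactor of the nuclear RNA exosome, was at 24.9 and 30.1, 11.4 and 40.6. PIASy-Mut 1 was the lowest library for all 8 of these nuclear genes. For Cfap58, Arl6, Oosp2, Ifitm6, Rbm7 and Stard3nl PIASy-Mut 2 was also the highest of the 4, whereas for Hpcal1 and Daw1 it lay within the non-injection range, as Daw1 shows with 55.8 and 47.5 without injection, 15.4 in PIASy-Mut 1 and 54.1 in PIASy-Mut 2.

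**Figure D4:**
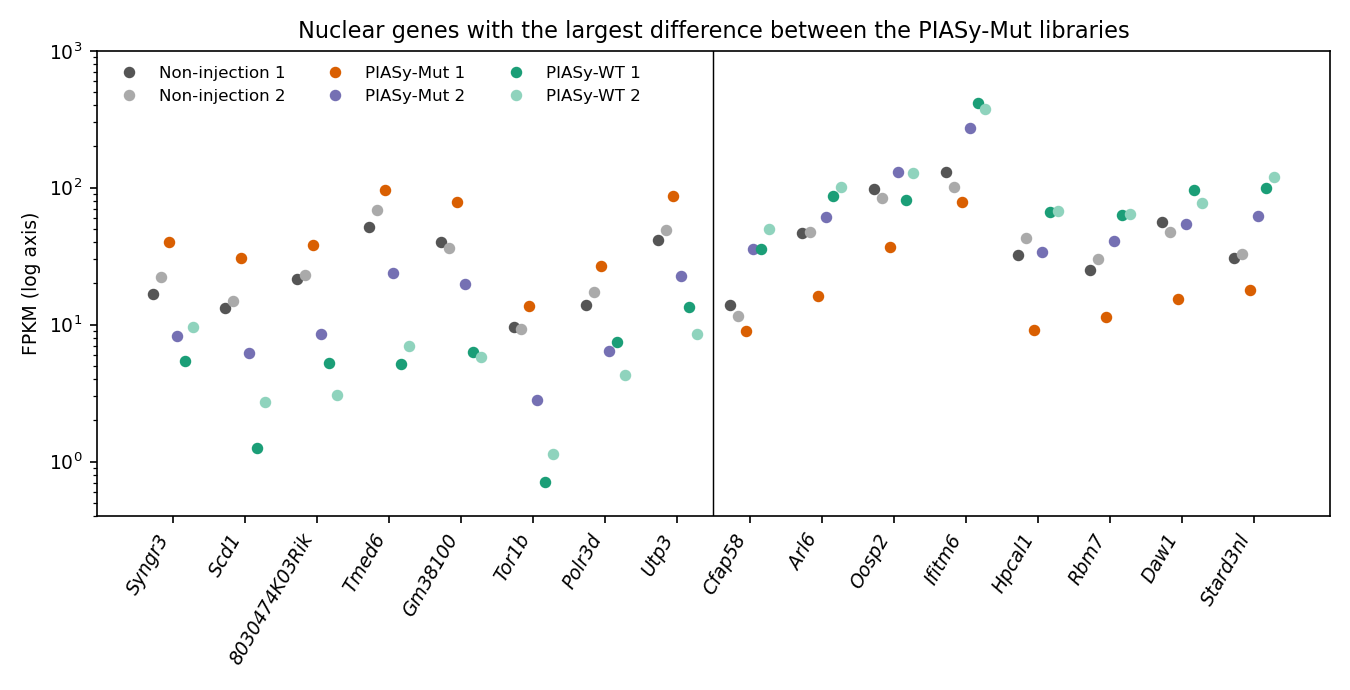
FPKM on a log axis of well-counted nuclear protein-coding genes in all 6 libraries, chosen among those that differed by under 0.5 (log2) within non-injection; left of the line the 8 with the largest excess in PIASy-Mut 1, right of it the 8 with the largest excess in PIASy-Mut 2. On the left PIASy-Mut 1 (orange) is at the top and PIASy-WT (green) at or near the bottom, as for Scd1 with 30.5 and 1.25 and 2.70, and on the right PIASy-Mut 1 is at the bottom.

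Several lists of basic cell functions were higher in PIASy-Mut 1, though not all by more than the well-counted members together. The median PIASy-Mut 2 minus PIASy-Mut 1 was -0.11 for histones and their chaperones. For glycolytic genes and lactate dehydrogenase it was 0.18 over 4 genes, in the other direction. Ribosomal protein genes had a median PIASy-Mut 2 minus PIASy-Mut 1 of -0.74, ribosome biogenesis -0.67, the TRiC chaperonin -0.66, splicing factors -0.65 and cyclins and mitotic kinases -0.55, beside -0.18 over all well-counted members. PIASy-Mut 1 was above PIASy-Mut 2 for 52 of 54 ribosomal protein genes, 25 of 26 biogenesis genes and 28 of 30 splicing factors, beside 2341 of 4045 over all. At 2-fold or more it was 13, 6 and 5 genes, and 0 in the reverse direction, beside 11.2% and 6.03% of all well-counted members, shares that move with the scaling as given above. Sf3a3, a subunit of a splicing complex that recognises the branch site, was at 68.2 in PIASy-Mut 1 and 23.5 in PIASy-Mut 2, with non-injection at 52.1 and 40.3. Cdc20, an activator of the anaphase-promoting complex, was at 175 and 56.5, with non-injection at 101 and 79.1.

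Maternal lists went the other way. The median PIASy-Mut 2 minus PIASy-Mut 1 was 1.07 for the subcortical maternal complex, 0.81 for the oocyte Nlrp genes, 0.77 for zona pellucida and oocyte-secreted factors and 0.56 for oocyte regulators. Ooep, of the subcortical complex, was at 44.4 in PIASy-Mut 1 and 133 in PIASy-Mut 2, with non-injection at 80.9 and 74.9. Nlrp14, of the oocyte Nlrp genes, was at 100.0 and 176, with non-injection at 106 and 94.8. Bmp15, which the oocyte secretes, was at 328 and 745, with non-injection at 482 and 461. PIASy-Mut 2 was above PIASy-Mut 1 for 5 of 5 well-counted Nlrp genes and 12 of 16 oocyte regulators. These are the libraries of which PIASy-Mut 1 had the lower mitochondrial share, and the part of that share in the list differences was not tested. On the deposited scale 24 of 32 lists had their median higher in PIASy-Mut 1.

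Gene types differed too. Well-counted nuclear protein-coding genes had a median PIASy-Mut 2 minus PIASy-Mut 1 of -0.18 (n = 3799), lincRNAs 0.54 (n = 84) and processed pseudogenes -0.58 (n = 44). The processed pseudogenes can share reads with their parent genes. By gene length the median ran from -0.30 in the shortest of 4 equal classes of the well-counted nuclear genes to -0.08 in the longest.

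The direction of the gap between the PIASy-Mut libraries was set beside the difference of PIASy-WT from non-injection, which is made from 4 other libraries. Across the 4035 well-counted nuclear genes, PIASy-Mut 2 minus PIASy-Mut 1 and PIASy-WT minus non-injection had a Pearson r of 0.750 and a Spearman rho of 0.812. The differences within the other pairs gave lower values, 0.233 for PIASy-WT 2 minus PIASy-WT 1 and 0.00129 for non-injection 2 minus non-injection 1 (Pearson). These are descriptions across genes, which are not independent, and no test was made.

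**Figure D5:**
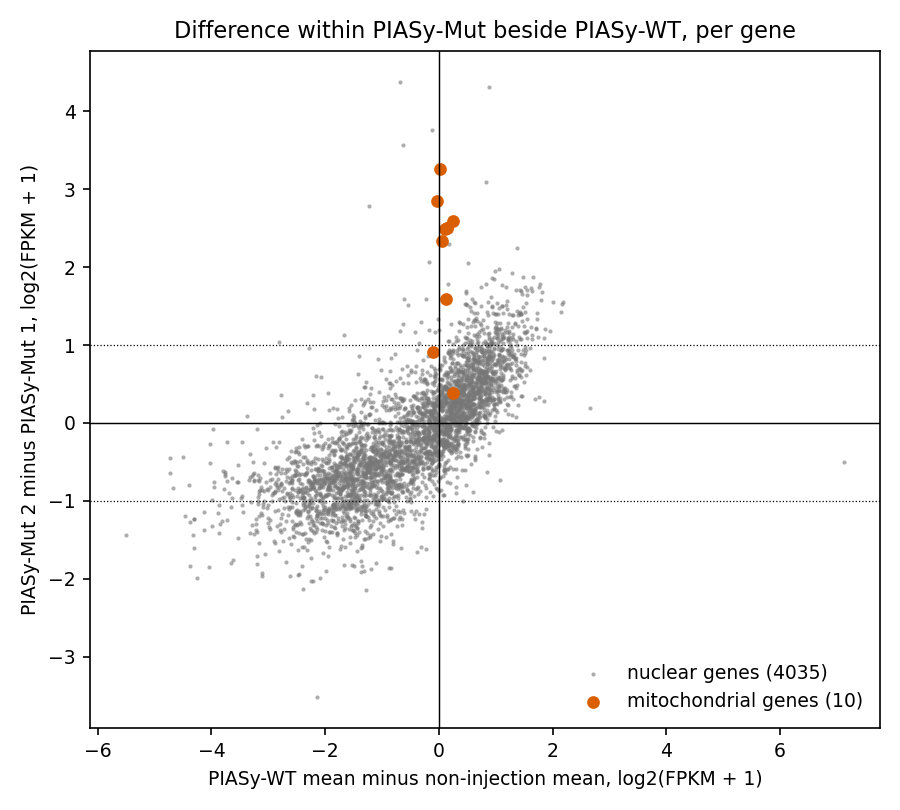
PIASy-Mut 2 minus PIASy-Mut 1 (vertical axis) against the PIASy-WT mean minus the non-injection mean (horizontal axis), both on the log2(FPKM + 1) scale, for 4035 nuclear (grey) and 10 mitochondrial (orange) well-counted genes. Nuclear genes rise from lower left to upper right (Pearson r = 0.750), and the mitochondrial genes lie above them near 0 on the horizontal axis.

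In numbers, 491 nuclear genes were lower in PIASy-WT by 4-fold or more, relative to non-injection. PIASy-Mut 1 was above PIASy-Mut 2 for 97.6% of them, by a median of 0.87 (log2). For the 911 genes that were 2 to 4-fold lower the share was 94.8% and the median 0.69. For the 277 genes at least 2-fold higher in PIASy-WT, PIASy-Mut 2 was above PIASy-Mut 1 for 98.2%, by a median of 0.89. The 2356 genes within 2-fold had a median of 0.10. PIASy-Mut 2 was thus the lower of its pair for most genes that were lower in PIASy-WT, and the higher for most that were higher.

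The size of the gap was smaller than the PIASy-WT difference for strongly lower genes. Rars, which charges arginine tRNA, was at 52.8 in PIASy-Mut 1, 35.9 in PIASy-Mut 2 and, for comparison, 3.97 and 3.23 in the PIASy-WT libraries. Rpl41 was at 1056, 628 and 83.3 and 49.9, and Obox6 at 1002, 513 and 51.6 and 42.7. PIASy-Mut 2 stayed well above PIASy-WT for these 3 genes. Genes higher in PIASy-WT varied, as Suv39h2 shows at 39.8 in PIASy-Mut 2 against 49.1 and 55.6, and Btg4 at 1332 against 3354 and 3020.2. Pias4, with injected and endogenous transcripts counted together, took 0.226% of the fragments of PIASy-Mut 2 and 0.319% of PIASy-Mut 1. In the PIASy-WT libraries it took 0.225% and 0.214%, and the part of this level in the gap was not tested. Over all 4045 well-counted members PIASy-Mut 2 had a Pearson r across genes of 0.9502 and 0.9519 with non-injection, 0.906 with PIASy-Mut 1 and 0.874 and 0.848 with PIASy-WT. With the same PIASy-WT libraries, PIASy-Mut 1 had 0.677 and 0.629, non-injection 1 had 0.798 and 0.748, and non-injection 2 had 0.779 and 0.747. PIASy-Mut 2 was thus nearer to PIASy-WT than these libraries were. Reads over the mutated codon were not analysed here. The part of depth and of the mitochondrial share in the order of the libraries was not tested.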

How the data were processed

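Libraries were made from pools of 5 two-cell embryos with SMART-Seq v4 and Nextera XT, trimmed with Trim Galore, aligned with STAR to mm10 and counted over genes with featureCounts (uniquely mapped reads), per the study's methods and the submitters' processing notes. Whether the counting used strand is not given in the sources used here, so overlapping and antisense genes cannot be told apart. The authors deposited FPKM per gene for 6 libraries. Multiplied by gene length and depth, the deposited FPKM gave whole fragments within a tolerance of 0.01. The spike-in was not analysed here.

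FPKM was taken as log2(FPKM + 1), and limma 3.58.1 (R 4.3.3, trended eBayes, Benjamini-Hochberg adjustment) was fitted to the members with all 6 libraries, so that 3 groups of 2 shared 1 estimate of the spread. A fold change on this scale understates the change of low genes. The threshold for a call was an adjusted p of 0.05. A gene was bounded where its 95% interval lay within 2-fold, and well-counted at a mean of at least 50 fragments over the 4 libraries. Libraries of 871663 to 1363928 fragments limit the precision of low genes. Within-pair differences have no test, and counting intervals are exact. Python 3.11.15 with pandas 2.3.3 and scipy 1.17.1 was used. Alternatives were the pseudocount (0.1), filters, scaling, the libraries in the fit, a replicate block, voom, other thresholds and leaving out each library. On simulated counts for this comparison (13911 genes), the fit called 4% of genes changed by 1 on the log2 scale, 58% by 2, 75.5% by 3 and 87.8% by 4, called 28 of 13713 unchanged genes and bounded 0 of the changed ones. It bounded 43.1% of the unchanged genes, against 16.8% of members in the data, so these rates may not hold for the data.

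Members and gene lists were chosen with earlier results of these data known. Genes were named by a rule: Pias4 and the genes the study names, the 6 highest and 6 lowest differences among well-counted protein-coding genes without overlap, the 8 largest differences between PIASy-Mut libraries in each direction where non-injection differed by under 0.5, the 2 most abundant and the 1 most different gene of each list, and the 10 most abundant genes. Outside it, Zfp352 and Zp3 were stage markers, and Gdf9, Tcstv1, Nlrp5, Bmp15, Isg15, the nuclear copies and the immunoglobulin genes were chosen after their values were seen.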

Additional observations from a re-analysis of the deposited data

How the results depend on the processing

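Pias4 stayed higher under every alternative run, by 7.16 to 7.66 on the log2 scale where a library was left out and by up to 7.76 with voom, and its call was lost only without non-injection 1 or non-injection 2, so that 0 to 1 genes were higher and 0 lower when a library was left out. In these fits the lone library of the group was assumed to vary like the other groups. The number of genes bounded within 2-fold ran from 303 to 1772 over the fits that left out a library. It was 1802 with a pseudocount of 0.1, 1117 with only the 4 libraries compared, 4676 with a 90% interval and 24 with a 1.5-fold bound. With no filter on low values it was 6018 (24432 genes tested), of which 2222 were bounded in the main fit. Differences of genes near an FPKM of 0 are small on the log2(FPKM + 1) scale, so this larger number does not show better precision. The replicate block gave 1 gene higher, 0 lower and 2175 bounded. The labels tie nothing but a number to same-numbered libraries. Across 4045 genes the within-pair differences (2 minus 1) had a Pearson r of 0.00174 between PIASy-Mut and non-injection, 0.238 between PIASy-Mut and PIASy-WT and 0.280 between non-injection and PIASy-WT, so the groups compared were not treated as paired. Genes at least 2-fold higher in PIASy-Mut 1 and in PIASy-Mut 2 numbered 785 and 502 at a mean of at least 20 fragments, 118 and 55 at 200, and 5 and 18 where a difference of at least 2 (log2) was asked, 7 of the 18 being mitochondrial and 4 more the chromosome 1 copies. The median PIASy-Mut 2 minus PIASy-Mut 1 of 32 lists kept its sign under all 4 alternatives run, apart from maternal mRNA decay, which went from -0.01 to 0.08 under quantile normalization. The cause of these shifts was not tested. Of the recomputed list medians 3 moved by more than the SD of the list's genes between the non-injection libraries and 251 did not. Of the group differences of named genes 180 moved by more than their SE and 1833 did not, and of the differences between the PIASy-Mut libraries 36 left the counting interval and 457 did not. Low genes are limited by depth.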

Other observations

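The libraries with the same number in the labels, 1 or 2, shared a presence or absence in 2 genes, which were chosen after their values were seen. Stk33, a kinase gene on chromosome 7, had 0 fragments in non-injection 1, PIASy-Mut 1 and PIASy-WT 1, and 195, 46 and 75 in non-injection 2, PIASy-Mut 2 and PIASy-WT 2. Gm43698, a lincRNA on chromosome 5, had 22, 94 and 47 fragments in the libraries numbered 1 and 0 in those numbered 2. They were the only genes with at most 3 fragments in each library of one number and at least 20 in each of the other.

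Several genes next to Ighg2b in order of p were short RNAs with very few fragments, such as Gm26479, an snRNA gene, with 2 and 1 fragments in PIASy-Mut and 0 in both other libraries. Snord8, a snoRNA gene, had 2 and 4 fragments without injection and 0 in each PIASy-Mut library. Such genes reach a high FPKM from single fragments because they are short, and no difference was detectable for them at this depth.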
